A study of Rattus norvegicus with 24 samples.

Results

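The voltage-gated calcium, sodium and HCN channel genes of the rat nucleus accumbens (NAc) were taken from the table by biotype and symbol. They were the protein-coding genes with symbols that began with Cacn, or that had the form Scn, a number and a or b, or the form Hcn and a number. The rule found 44 of the 32545 genes of the table, among 22293 protein-coding genes. By role they were 10 pore subunits of calcium channels, 4 alpha2delta subunits, 4 calcium channel beta subunits, 8 gamma subunits including the AMPA receptor partners called TARPs, 10 sodium channel alpha subunits, 4 sodium channel beta subunits and 4 HCN subunits. Of these, 35 had a mean of at least 0.5 FPKM (sequenced fragments of a gene, divided by its length and by the size of the library) and were tested in every comparison. The other 9 lay below that level, and are named with their family.

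Voltage-gated sodium channels carry the rising phase of the action potential, and their alpha subunits form the pore while beta subunits shape its gating and its anchoring in the membrane. Calcium channels turn the action potential into calcium entry, which drives transmitter release and gene regulation, and their alpha2delta and beta subunits set how many pores reach the membrane. HCN channels open on hyperpolarization and set resting potential and rhythmic firing. Medium spiny neurons (MSNs), the main cell type of the NAc, depend on these currents for their move from a silent state near rest to firing.

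The study asked how past immune stimulation and heroin bear on NAc RNA. Adult male Sprague Dawley rats, 8 weeks old on arrival, were used throughout, and no group carried a transgene. In the injection experiment, rats received 5 intraperitoneal injections of saline or of 250 µg/kg lipopolysaccharide (LPS, a bacterial wall component that activates the immune system) over 2 weeks, and then 5 daily intraperitoneal injections of saline or of heroin rising from 1 to 5 mg/kg. The groups are named by the first and the second agent, as Saline-Saline, Saline-Heroin, LPS-Saline and LPS-Heroin, so that Saline-Saline rats received vehicle in both phases. The labels place 1 week between the phases and killing 1 h after the last injection, while the study's methods give a shorter gap and a locomotor test before killing. In the self-administration experiment, rats with jugular catheters took saline (Saline-SA) or heroin at 0.075 mg/kg per infusion (Heroin-SA) in 10 daily sessions of 6 h, and were killed right after the last session. Each of the 6 groups held 4 libraries, labelled as biological replicates. The experiments also differed in housing, light cycle, surgery and time of killing, so none of these can be told apart from the way heroin was given.

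Reads assigned to genes ran from 12312878 to 18850240 per library, with a median of 14774654. All 15 MSN markers examined, among them Drd1, Drd2, Adora2a and Ppp1r1b, had a mean above 0 FPKM in every group, and their summed level ran from 1735 to 4218 FPKM. None of the 15 was called in any comparison. Markers of cortical glutamatergic neurons, of the septum and ventral forebrain, of red blood cells and of interneurons also moved with treatment, and their values stand beside the channel genes below. Saline-SA replicate 4 had the lowest mean correlation with the other libraries of its group, at 0.942, and red blood cell markers summed to 4649 FPKM there and to 3080 FPKM in Heroin-SA replicate 4, against 597 to 1137 FPKM in the other 6 self-administration libraries. Without Saline-SA replicate 4 the number of channel genes called between Heroin-SA and Saline-SA was 3, the same as with it. In bulk tissue, fewer cells of a type and less RNA per cell cannot be told apart.

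Levels differed widely between families, and are given here as FPKM, which is scaled by gene length, over all 24 libraries. Among calcium channel pores, Cacna1a (the P/Q-type pore of transmitter release) was highest at 20.8 FPKM ± 1.88 (SD, n = 24). The T-type pores Cacna1i, Cacna1h and Cacna1g, which open near rest, stood at 15.1, 14.1 and 10.1 FPKM. The N-type pore Cacna1b and the R-type pore Cacna1e reached 15.0 and 14.3 FPKM, and the L-type pores Cacna1d and Cacna1c reached 9.18 and 6.78 FPKM. The muscle pore Cacna1s and the retinal pore Cacna1f were at 0.124 and 0.0686 FPKM and were not tested. The means of Cacna1i, Cacna1h, Cacna1b and Cacna1e lay within 1 SD of each other.

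Of the alpha2delta subunits, the targets of gabapentin-like drugs among them, Cacna2d3 was highest at 51.7 FPKM ± 7.79 (SD, n = 24), ahead of Cacna2d2 at 26.2 and Cacna2d1 at 18.3 FPKM. The order of the latter pair was not the same in every group, since Cacna2d1 averaged 25.4 and Cacna2d2 20.8 FPKM in LPS-Heroin, and Cacna2d1 was lowest in Saline-SA and Heroin-SA, at 8.87 and 11.4 FPKM. Cacna2d4 stood at 0.0712 FPKM. The beta subunits, which bind the pore from the inside, were led by Cacnb3 at 78.7 and Cacnb1 at 70.1 FPKM, with Cacnb4 at 22.1 and Cacnb2 at 20.1 FPKM. Cacng8 and Cacng7 were highest of the gamma family, at 97.4 and 77.8 FPKM. The gamma subunits of skeletal muscle, Cacng1 and Cacng6, were at 0.289 and 0.198 FPKM. Cacng8 overlaps a microRNA gene on its own strand in the file's coordinates, so its counts are uncertain.

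Scn2a was the highest sodium channel alpha subunit at 35.3 FPKM ± 7.10 (SD, n = 24), followed by Scn8a at 24.01 and, with 13.3% of the family's summed FPKM, Scn3a, and then by Scn1a at 7.94 FPKM. Scn9a, best known from sensory neurons, was at 1.84 FPKM. The 4 untested alpha subunits were Scn7a at 0.234, the muscle pore Scn4a at 0.150, and the sensory neuron pores Scn11a at 0.0739 and Scn10a at 0.0313 FPKM. Over all libraries the beta subunits Scn4b and Scn2b averaged 92.2 FPKM ± 27.2 and 81.0 FPKM ± 17.1 (SD, n = 24), but their order differed between the experiments. The mean of Scn2b was above that of Scn4b in all 4 injection groups (79.8 and 71.9 FPKM in Saline-Saline), and below it in Saline-SA (57.7 and 105.9 FPKM) and Heroin-SA (71.7 and 124.2 FPKM). Scn4b, which is strongly expressed in striatum, had the widest spread of the 4 beta subunits. In the HCN family, Hcn2 made up 78.7% ± 4.43 (SD, n = 24) of the summed FPKM, with Hcn3 at 10.2% and Hcn4 at 3.26%.

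**Figure D1:**
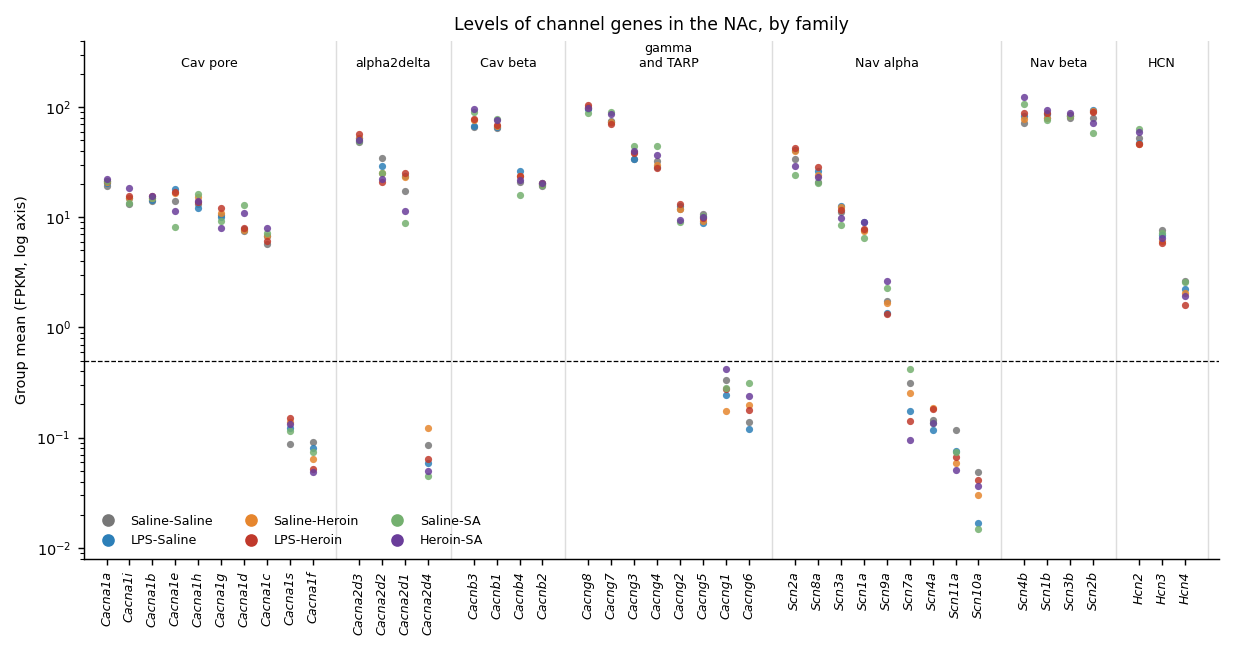
Mean FPKM of 42 of the 44 channel genes in each of the 6 groups (points, n = 4 libraries each), on a log axis, with genes ordered by family and level. The genes tested lie above the dashed line at 0.5 FPKM, and of the genes drawn there Cacna2d1 shows the widest separation between the injection and the self-administration groups.

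A gene was called where limma gave an unadjusted p of at most 0.05 and a log2 fold change of at least 0.38 in size, the thresholds the study used for its pattern analyses. In all 10 contrasts, 0 genes of the table had an adjusted p under 0.05, by limma on FPKM and by limma-voom on recovered reads. Every call below is thus an unadjusted one, and must be read against the share of all genes called in the same way. At an unadjusted p under 0.05 alone, limma gave 6 of the 35 channel genes for LPS-Saline, 6 for Saline-Heroin and 9 for LPS-Heroin against Saline-Saline, and 7 for Heroin-SA against Saline-SA. Counts by p alone are given here and below without the share of all genes at that limit. They are therefore not read as an excess of channel genes. The first 3 comparisons share the same 4 Saline-Saline libraries, so their values are set side by side and are not separate evidence.

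LPS-Saline against Saline-Saline called 2 of 35 channel genes up and 0 down, where 1.21% of all genes tested were called up and 1.16% down. Saline-Heroin against Saline-Saline called 2 up and 1 down, against 1.4% and 1.67% of all genes. LPS-Heroin against Saline-Saline called 3 up and 4 down, against 2.99% and 2.44%. Heroin-SA against Saline-SA called 3 up and 0 down, against 3.04% and 2.41%. The median log2 fold change of the 35 genes was 0.06, 0.07, 0.10 and 0.08 in these comparisons, and the median of all genes tested lay between 0.00 and 0.01. The median deviation of the same genes varied by 0.07 (SD) between libraries of a group. As a share, 7 of 35 in the LPS-Heroin comparison was the widest departure from the background.

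These counts moved with single libraries. Without LPS-Saline replicate 1 the first comparison called 1 channel gene, and without LPS-Saline replicate 4 it called 4. Saline-Heroin called 0 without its replicate 1 or 3, 1 without its replicate 4 or Saline-Saline replicate 2 or 4, and 4 without its replicate 2. LPS-Heroin called 3 without its replicate 1 or 2, 4 without Saline-Saline replicate 2 or 4, and 8 without its replicate 3. Heroin-SA called 6 without its replicate 3. Throughout, counts with a library left out stand without the share of all genes called in the same way. They show only how far the calls rest on single libraries, and are not read as an excess of channel genes.

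**Figure D2:**
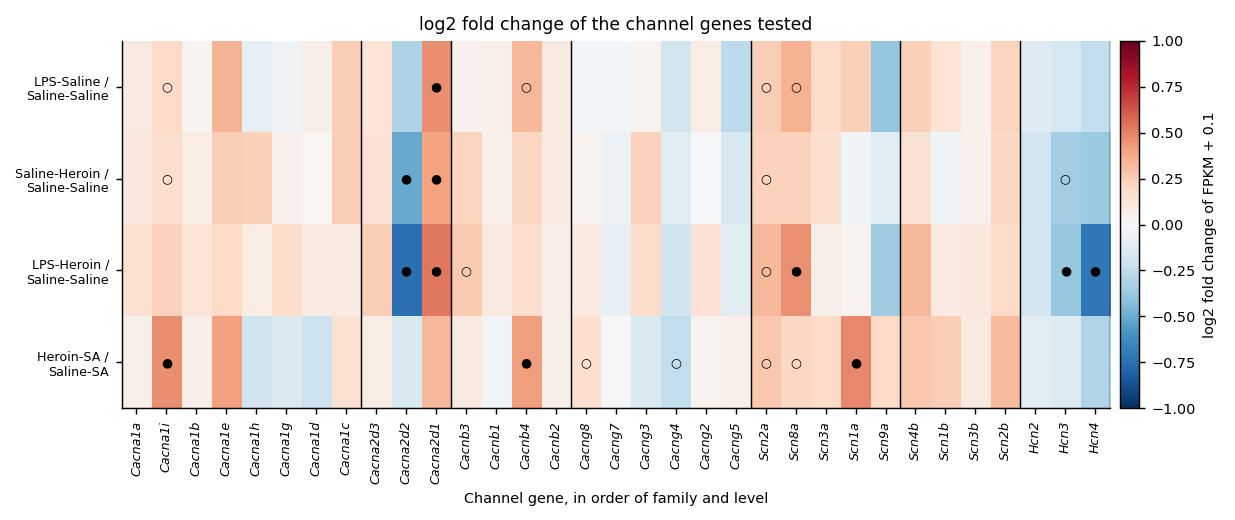
log2 fold change of FPKM + 0.1 for 33 of the 35 channel genes tested (columns, grouped by family) in 4 comparisons against the matching saline group (rows), with red for higher and blue for lower. Filled circles mark genes called (unadjusted p at most 0.05 and a log2 fold change of at least 0.38 in size), open circles mark an unadjusted p at most 0.05 below that fold, and Scn2a carries an open circle in all 4 rows.

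Among sodium channel alpha subunits, Scn2a was higher in every treated group than in its control in both experiments, by small amounts without overlap. Scn8a was higher without overlap in LPS-Saline, LPS-Heroin and Heroin-SA, with a wide spread in LPS-Heroin, while Saline-Heroin overlapped its control. Scn2a encodes a main pore of the axon initial segment of young and unmyelinated axons, and Scn8a the pore that carries most current at mature initial segments and nodes. In the authors' coordinates (rn6), Scn2a lies at chr3:51687809-51822250 on the plus strand and Scn8a at chr7:142575672-142684114 on the plus strand. The 250 bases before the annotated starts of these genes are shown as a description of their promoters, whose part in the differences was not tested. They come from RefSeq (GRCr8, the strand of the gene, chr3:70710706-70710955 and chr7:133860977-133861226), with GC boxes (GGGCGG on either strand) in capitals.
Scn2a: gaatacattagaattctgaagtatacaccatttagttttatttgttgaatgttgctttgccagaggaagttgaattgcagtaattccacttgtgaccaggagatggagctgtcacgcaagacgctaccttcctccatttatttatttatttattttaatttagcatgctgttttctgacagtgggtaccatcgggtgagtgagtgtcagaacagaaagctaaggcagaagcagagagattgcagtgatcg
Scn8a: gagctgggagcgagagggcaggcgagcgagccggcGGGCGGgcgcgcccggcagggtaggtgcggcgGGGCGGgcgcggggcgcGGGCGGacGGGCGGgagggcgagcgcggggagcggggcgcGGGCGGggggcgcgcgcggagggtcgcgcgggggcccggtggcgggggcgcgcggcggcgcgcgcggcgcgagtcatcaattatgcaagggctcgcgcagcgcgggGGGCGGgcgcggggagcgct
The Scn8a window was 86% G and C and held 6 GC boxes, whereas the Scn2a window was 39.6% G and C and held none of the 4 motifs searched.

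Scn2a stood at 33.1, 33.7, 35.2 and 34.6 FPKM in the 4 Saline-Saline libraries. The LPS-Saline libraries read 40.3, 40.9, 39.7 and 40.8 FPKM, the Saline-Heroin libraries 45.5, 36.8, 39.7 and 38.9 FPKM, and the LPS-Heroin libraries 43.6, 47.2, 37.8 and 43.2 FPKM. All 12 treated libraries of the injection experiment were above all 4 Saline-Saline libraries. No share of all genes is given for separation in every treated group, and these groups share their controls. The separation is therefore not read as unusual among genes. In the self-administration experiment Scn2a read 25.7, 24.5, 25.4 and 22.1 FPKM in Saline-SA and 26.8, 31.1, 30.0 and 30.1 FPKM in Heroin-SA, again without overlap.

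On the log2 scale the difference in Scn2a was 0.24 (SE 0.05) for LPS-Saline, 0.23 (SE 0.07) for Saline-Heroin, 0.33 (SE 0.07) for LPS-Heroin and 0.27 (SE 0.08) for Heroin-SA. The adjusted p by limma was 0.586, 0.750, 0.186 and 0.339. Each fell short of the fold limit, so Scn2a was not called, and it was singled out after its values were seen. An exact permutation test gave 0.0286 in each comparison, the smallest two-sided p that 4 against 4 libraries allow. Any groups of 4 without overlap give this value, so here and below it adds nothing to the lack of overlap. Leaving out any library kept the unadjusted p at most 0.05 in all 4 comparisons, with log2 fold changes from 0.17 to 0.39. In the 16 injection libraries the LPS and heroin main effects on Scn2a were 0.17 and 0.16 (SE 0.05 each), and their interaction was −0.15 (SE 0.10, 95% interval −0.36 to 0.06). A gene on the opposite strand overlaps Scn2a, and was at or below 1.23 FPKM in every library.

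Scn8a read 19.9, 19.9, 21.1 and 22.0 FPKM in Saline-Saline and 34.6, 33.7, 23.0 and 24.2 FPKM in LPS-Heroin. The LPS-Heroin libraries were all higher, with 2 of them well apart from the other 2. The rise was 0.45 on the log2 scale (SE 0.14, limma adjusted p = 0.267, exact permutation p = 0.0286), and it dropped below the fold limit without LPS-Heroin replicate 1 or 2, where the lowest value was 0.36. In LPS-Saline the values of 28.4, 27.4, 25.2 and 24.5 FPKM also lay above every Saline-Saline library, with a log2 difference of 0.34 (SE 0.07) under the fold limit. Saline-Heroin overlapped its control at 27.6, 19.9, 26.1 and 24.2 FPKM. Heroin-SA read 22.6, 22.9, 22.7 and 25.4 FPKM and Saline-SA 21.9, 19.6, 20.2 and 19.3 FPKM, without overlap and with a log2 difference of 0.21 (SE 0.07), also under the limit. Neither gene's effect was shown to differ between self-administered and injected heroin, with differences of 0.04 (95% interval −0.18 to 0.25) for Scn2a and −0.02 (−0.28 to 0.24) for Scn8a.

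Counting groups that did not overlap at an unadjusted p of at most 0.05, whatever the fold, LPS-Saline had 4 of 35 channel genes above Saline-Saline (Cacna1i, Cacna2d1, Scn2a and Scn8a) and 0 below. Among all genes tested, 1.67% were above and 1.36% below by that rule. Saline-Heroin had 1 above (Scn2a) and 1 below (Hcn3), against 1.41% and 1.12%. LPS-Heroin had 3 above (Cacnb3, Scn2a and Scn8a) and 3 below (Cacna2d2, Hcn3 and Hcn4), against 3.18% and 2.58%. Heroin-SA had 4 above (Cacng8, Scn1a, Scn2a and Scn8a) and 0 below Saline-SA, against 2.96% and 2.64%. This rule was added after the values were seen.

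Scn1a, the sodium channel most used by fast-spiking interneurons, was called in the self-administration experiment. It read 5.95, 6.82, 7.44 and 5.73 FPKM in Saline-SA and 9.83, 8.38, 9.08 and 8.86 FPKM in Heroin-SA. The groups did not overlap, and Scn1a rose by 0.48 on the log2 scale (SE 0.11, limma adjusted p = 0.279, exact permutation p = 0.0286). It remained called without each of the 8 libraries in turn, at 0.42 to 0.55. Markers of fast-spiking and other interneurons summed to 417 to 568 FPKM in Saline-SA and to 586 to 678 FPKM in Heroin-SA, also without overlap, although 0 of the 7 tested were called, and Npy, another of the list, was listed at 0 in Saline-SA. Of 4 cholinergic markers 2 were called down in Heroin-SA, Ache and Chat, with sums of 29.4 to 49.2 FPKM in Saline-SA and 24.3 to 39.1 FPKM in Heroin-SA. The part of these cells in the Scn1a result was not tested. In Saline-Heroin rats Scn1a read 6.44, 7.58, 6.24 and 9.72 FPKM, within the Saline-Saline values of 7.13, 6.21, 7.55 and 9.96 FPKM. The effect of self-administered heroin exceeded that of injected heroin by 0.52 (SE 0.22, limma adjusted p = 0.738), which was lost without Saline-Saline replicate 4, Saline-Heroin replicate 1 or 3, Saline-SA replicate 1 or 4 or Heroin-SA replicate 1 (0.39 to 0.65).

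Scn3a, Scn9a and the 4 sodium channel beta subunits were called in none of the comparisons, and the log2 differences of the 4 beta subunits were positive in LPS-Saline, LPS-Heroin and Heroin-SA and for 3 of the 4 in Saline-Heroin (lowest −0.04), none of which passed the test. Summed over the 10 alpha subunits, the level was 79.2 FPKM ± 4.39 in Saline-Saline, 94.6 ± 9.70 in LPS-Heroin, 92.1 ± 2.64 in LPS-Saline and 89.3 ± 3.63 in Saline-Heroin (SD, n = 4), and 64.4 ± 1.83 in Saline-SA and 76.2 ± 3.81 in Heroin-SA.

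Among alpha2delta subunits, Cacna2d1 rose in every treated group of the injection experiment and Cacna2d2 fell in both heroin-injected groups. Both proteins carry calcium channels to the presynaptic membrane, Cacna2d1 being the chief gabapentin target. Cacna2d1 lies at chr4:15710417-16130848 on the minus strand and Cacna2d2 at chr8:116154736-116284985 on the plus strand (rn6), and neither overlaps another gene of the table. The 250 bases before their RefSeq starts (GRCr8) are printed as a description of their promoters, whose part in the changes was not tested. The windows lie at chr4:20330148-20330397 on the minus strand, the most upstream of 3 starts listed, and at chr8:116950856-116951105 on the plus strand. Capitals mark GC boxes, here found as CCGCCC on the printed strand.
Cacna2d1: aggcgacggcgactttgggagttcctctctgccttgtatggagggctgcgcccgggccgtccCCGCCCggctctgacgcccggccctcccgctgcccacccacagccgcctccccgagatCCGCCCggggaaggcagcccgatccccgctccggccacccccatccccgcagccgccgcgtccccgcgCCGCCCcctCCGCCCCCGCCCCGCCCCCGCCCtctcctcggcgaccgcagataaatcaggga
Cacna2d2: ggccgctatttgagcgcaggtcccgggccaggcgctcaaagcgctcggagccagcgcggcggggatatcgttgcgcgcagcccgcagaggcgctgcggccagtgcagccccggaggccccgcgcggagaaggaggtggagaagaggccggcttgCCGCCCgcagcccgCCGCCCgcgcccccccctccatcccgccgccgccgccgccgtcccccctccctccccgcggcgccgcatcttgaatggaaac
These windows were 77.2% and 76.8% G and C, with 7 and 2 GC boxes. A GC box was found in 30.47% of the 33469 RefSeq promoter windows and in 16 of the 31 windows listed for channel genes, which belong to 28 of the 44 genes. A CCAAT box (CCAAT) was found in 4 of the 31 windows, a TATA box (TATAAA) in 2 and a cAMP response element (TGACGTCA) in 0, and they were found in 34.02%, 12.93% and 1.587% of all windows, counting both strands and any overlap between motifs. The median share of G and C was 63.2% for the channel genes and 51.2% for all windows.

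Cacna2d1 read 15.0, 16.7, 21.5 and 16.2 FPKM in Saline-Saline and 24.9, 22.3, 24.6 and 23.3 FPKM in LPS-Saline. All 4 LPS-Saline libraries were higher, and Cacna2d1 rose by 0.46 on the log2 scale (SE 0.11, limma adjusted p = 0.659, exact permutation p = 0.0286). This call was kept without each of the 8 libraries in turn, at 0.40 to 0.57. In Saline-Heroin it read 26.8, 17.9, 26.4 and 20.9 FPKM, a rise of 0.40 (SE 0.16), and in LPS-Heroin 29.4, 27.2, 16.2 and 28.9 FPKM, a rise of 0.52 (SE 0.20), with an exact permutation p of 0.0857 in both. Saline-Heroin replicates 2 and 4 and LPS-Heroin replicate 3 fell within the control range, so both of these groups overlapped Saline-Saline, and neither call was stable. In Saline-Heroin it was lost on leaving out Saline-Saline replicate 1, 2 or 4 or Saline-Heroin replicate 1 or 3 (0.32 to 0.51 over the libraries left out), and in LPS-Heroin it was kept only without Saline-Saline replicate 3 or LPS-Heroin replicate 3 (0.44 to 0.73). The difference between LPS-Heroin and LPS-Saline was 0.06 (no call). Heroin-SA, at 10.5, 12.1, 8.17 and 14.8 FPKM, overlapped Saline-SA at 9.05, 8.77, 8.68 and 8.97 FPKM, with a log2 difference of 0.32 (SE 0.16, 95% interval −0.04 to 0.69).

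Cacna2d2 read 36.2, 29.0, 35.4 and 38.7 FPKM in Saline-Saline and 17.2, 20.4, 23.9 and 21.6 FPKM in LPS-Heroin. No LPS-Heroin library reached the lowest control, and Cacna2d2 fell by 0.74 on the log2 scale (SE 0.12, exact permutation p = 0.0286, limma adjusted p = 0.144), the lowest adjusted p of any channel gene. It remained called without each library in turn, at −0.83 to −0.66. Saline-Heroin read 20.9, 37.0, 18.0 and 25.4 FPKM, a fall of 0.50 (SE 0.20, exact permutation p = 0.114) in which replicate 2 lay among the controls. That call was kept only without Saline-Saline replicate 2 or Saline-Heroin replicate 2 (−0.70 to −0.36 over the libraries left out). LPS-Saline read 22.2, 27.7, 43.0 and 23.3 FPKM, where 3 libraries lay below the controls and replicate 3 above them all. Over the 16 injection libraries the heroin main effect was −0.47 (SE 0.15, limma adjusted p = 0.547), and it lost its call, at −0.37, without LPS-Saline replicate 3. The LPS main effect of −0.27 (SE 0.15) was not called. Heroin-SA and Saline-SA overlapped, with means of 22.1 and 25.1 FPKM. Cacna2d3 was called in no comparison.

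**Figure D3:**
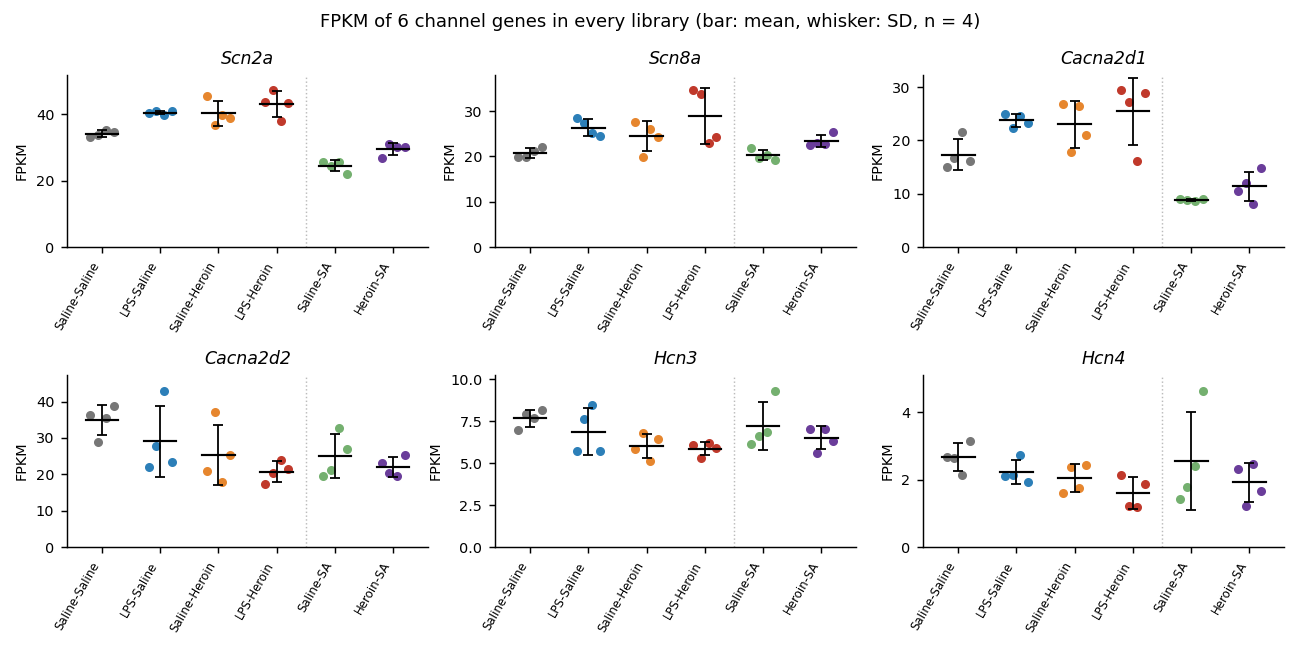
FPKM of 6 channel genes in each of the 24 libraries (points), with the mean and SD of each group (bar and whisker, n = 4) and the injection groups to the left of the dotted line. Scn2a lies above its own control group in every treated group, and Cacna2d2 is at 17.2 to 23.9 FPKM in LPS-Heroin against 29.0 to 38.7 FPKM in Saline-Saline.

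The markers of neighbouring tissue moved with these genes in the LPS-Heroin comparison, and their part in the channel results was not tested. Of 11 markers of cortical glutamatergic neurons measured, 8 were called up in LPS-Heroin and 0 down (median log2 0.86; Slc17a7, Neurod6 and Tbr1 among them), and none had a mean of 0 in any group. Their summed level was 206 to 403 FPKM in Saline-Saline and 543 to 598 FPKM in LPS-Heroin, while LPS-Saline spanned 203 to 538 and Saline-Heroin 272 to 638 FPKM. Of 9 septum and ventral forebrain markers, 6 were called down and 0 up (median −1.12), with sums of 60.9 to 157 FPKM in Saline-Saline and 26.0 to 57.3 FPKM in LPS-Heroin. In LPS-Saline 0 of the cortical and 0 of the septal markers were called, with medians of 0.36 and −0.68 (limma, no member at an adjusted p under 0.05), and in Saline-Heroin 1 was called up and 1 down. Red blood cell markers were called up for 4 of 5 in LPS-Heroin and 2 of 5 in Saline-Heroin. Cholinergic markers were called down for 2 of 4 in LPS-Heroin, Ache and Isl1 (median −0.59), with sums of 45.6 to 63.1 FPKM in Saline-Saline and 27.2 to 44.6 FPKM in LPS-Heroin. Ache was also called down in LPS-Saline and in Saline-Heroin (medians of the list −0.31 and −0.40). Of 7 fast-spiking and other interneuron markers tested, Lhx6 was called down in both Saline-Heroin and LPS-Heroin. Choroid plexus markers summed to 333 FPKM in Saline-Saline replicate 1 and to 0.822 to 13.02 FPKM in the other 3 controls. Without that library LPS-Saline called 2 channel genes, Saline-Heroin 2 and LPS-Heroin 5. LPS-Saline replicate 3 had the lowest cortical sum of its group, at 203 FPKM. Its septum and ventral forebrain sum was the highest of its group, at 90.8 against 40.5 to 57.3 FPKM. It had 39.7 FPKM of Scn2a, the lowest of its group, and 24.6 FPKM of Cacna2d1, both above every Saline-Saline library. Its Cacna2d2, at 43.0 FPKM, was the highest of its group. Saline-Heroin replicate 2 had a cortical sum of 272 FPKM and the highest septum and ventral forebrain sum of its group, at 111.7 against 44.2 to 51.6 FPKM. This library had the lowest Scn2a, Scn8a and Cacna2d1 and the highest Cacna2d2 of its group, and without it 4 channel genes were called in place of 3.

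**Figure D4:**
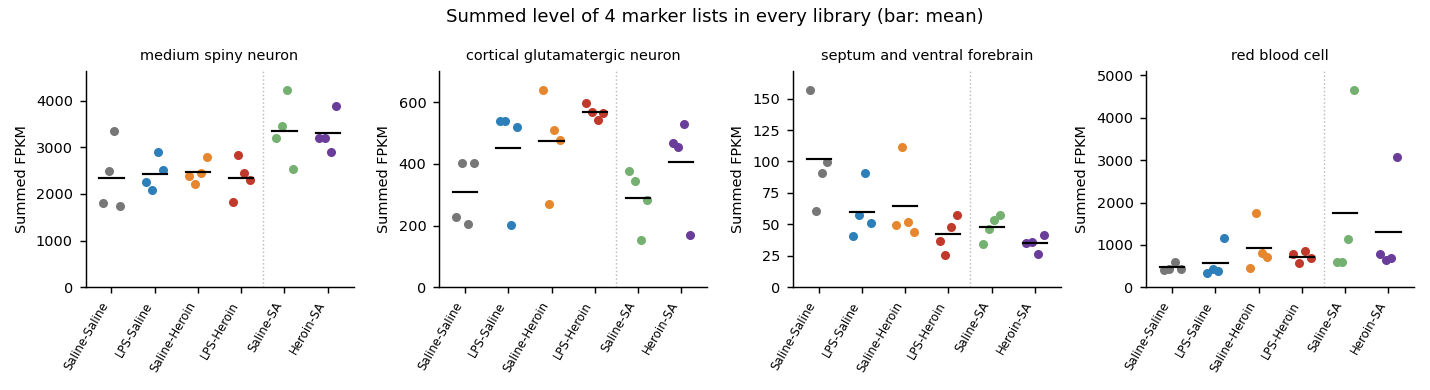
Summed FPKM of 4 marker lists in each of the 24 libraries (points), with group means (bars) and the injection groups to the left of the dotted line. Cortical glutamatergic markers lie at 543 to 598 FPKM in LPS-Heroin and at 206 to 403 FPKM in Saline-Saline, septum and ventral forebrain markers show the opposite order, and MSN markers overlap between all treated groups and their controls.

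Calcium channel pores differed little in the injection experiment, where none of the 8 tested was called between pairs of groups. The T-type pore Cacna1i was called in the self-administration experiment. It read 13.3, 12.3, 12.01 and 15.8 FPKM in Saline-SA and 18.8, 19.3, 15.6 and 20.0 FPKM in Heroin-SA, so that 3 Heroin-SA libraries lay above all controls and replicate 3 just below the highest. Cacna1i rose by 0.46 on the log2 scale (SE 0.11, limma adjusted p = 0.310, exact permutation p = 0.0571) and stayed called without each library in turn, at 0.41 to 0.54. In LPS-Saline its 14.7 to 15.6 FPKM lay above the 12.2 to 14.6 FPKM of Saline-Saline, with a difference of 0.19 (SE 0.07), under the fold limit.

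Cacna1c, an L-type pore that couples calcium entry to gene regulation, was the only channel gene of the 35 called for the LPS by heroin interaction, where 1.26% of all genes were called up and 1.05% down. Its mean was 5.75 FPKM in Saline-Saline and 6.14 in LPS-Heroin, and reached 6.79 in LPS-Saline and 6.80 in Saline-Heroin. The interaction was −0.40 (SE 0.18, limma adjusted p = 0.992), and it was kept only without Saline-Saline replicate 3 or 4, LPS-Saline replicate 2, Saline-Heroin replicate 2 or LPS-Heroin replicate 1 or 2 (−0.50 to −0.31 over the libraries left out). Cacna1h, a T-type pore, averaged 13.1 FPKM in Saline-Saline and 15.4 in Saline-Heroin, and 16.2 in Saline-SA and 14.1 in Heroin-SA. The effect of self-administered heroin on Cacna1h was lower than that of injected heroin by a log2 of −0.44 (SE 0.16, limma adjusted p = 0.718), and neither effect alone was called. The difference lost its call without Saline-Saline replicate 2 or Saline-SA replicate 4 (−0.53 to −0.36). For this contrast 1 channel gene was called up (Scn1a) and 1 down (Cacna1h), where 2.64% and 1.74% of all genes were. The annotation places Tpsg1 on the opposite strand within Cacna1h, so its counts are uncertain.

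Of the beta subunits, Cacnb4 rose by 0.42 on the log2 scale in Heroin-SA (SE 0.14, limma adjusted p = 0.354, exact permutation p = 0.0857). It read 16.4, 15.4, 15.6 and 16.4 FPKM in Saline-SA and 19.5, 25.9, 16.3 and 24.96 FPKM in Heroin-SA, so replicate 3 lay within the controls, and the call was lost without Heroin-SA replicate 2 or 4 (0.32 to 0.54 over the libraries left out). In LPS-Saline the difference was 0.33 (SE 0.13), under the limit. The annotation places 2 genes on the opposite strand that overlap Cacnb4, so its counts are uncertain. Cacnb3 read 55.7 to 74.6 FPKM in Saline-Saline and 75.4 to 81.6 FPKM in LPS-Heroin, a difference of 0.26 (SE 0.09) under the fold limit without overlap. Against LPS-Saline, at 58.9 to 73.3 FPKM, the difference was 0.22 (SE 0.07), and Cacnb3 was the 1 channel gene of 35 whose groups lay apart there, with 0 below, where 0.969% of all genes lay above and 0.863% below. The level was not particular to LPS-Heroin, since Saline-Heroin had a mean of 76.3 FPKM against 77.9 in LPS-Heroin. Saline-Heroin spanned 63.5 to 82.9 FPKM and overlapped Saline-Saline. Cacnb1 and Cacnb2 were called nowhere.

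None of the 6 gamma subunits tested was called. The closest were the TARPs Cacng8, at 82.6 to 92.3 FPKM in Saline-SA and 95.4 to 100.1 FPKM in Heroin-SA (log2 difference 0.17, SE 0.06), and Cacng4, with means of 43.97 and 36.96 FPKM (−0.25, SE 0.09). Both had an unadjusted limma p under 0.05 and lay under the fold limit.

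**Figure D5:**
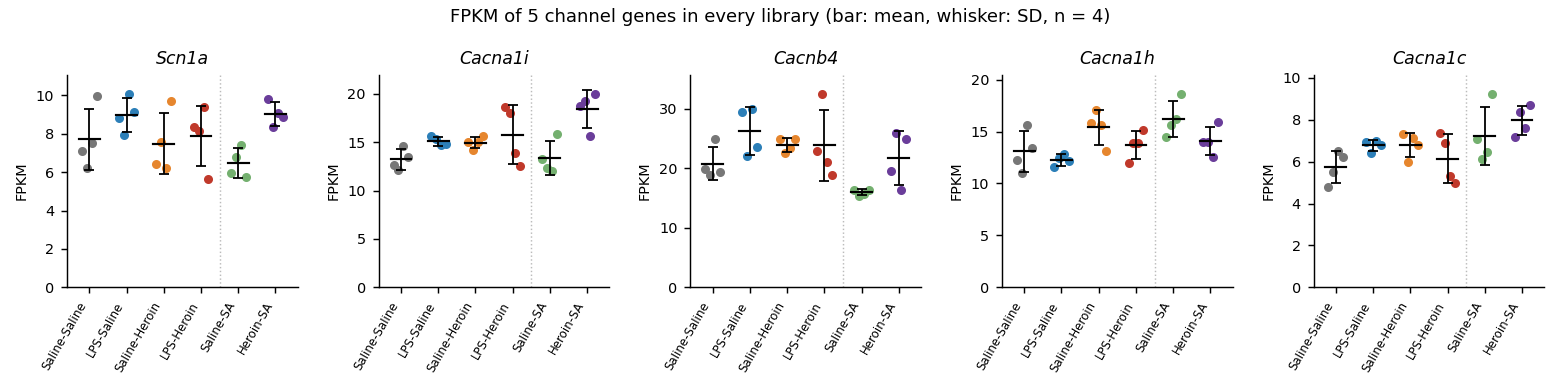
FPKM of 5 channel genes in each of the 24 libraries (points), with the mean and SD of each group (bar and whisker, n = 4) and the self-administration groups to the right of the dotted line. Scn1a, Cacna1i and Cacnb4 average 9.04, 18.4 and 21.7 FPKM in Heroin-SA against 6.49, 13.4 and 15.96 FPKM in Saline-SA, and only for Scn1a do these 2 groups not overlap.

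In the HCN family, Hcn3 and Hcn4 were called down in LPS-Heroin, while Hcn2, the main subunit, was called nowhere. Hcn4 forms the slowest channel of the family, and is best known from the cardiac pacemaker. Hcn4 read 2.69, 2.66, 2.15 and 3.16 FPKM in Saline-Saline and 2.15, 1.23, 1.21 and 1.86 FPKM in LPS-Heroin, on 94 to 256 reads. The highest LPS-Heroin library, at 2.147 FPKM, lay just under the lowest control, at 2.150 FPKM. Hcn4 fell by 0.72 on the log2 scale (SE 0.23, limma adjusted p = 0.282, exact permutation p = 0.0286) and stayed called without each library in turn, at −0.86 to −0.60. In LPS-Saline, also without heroin, Hcn4 spanned 1.92 to 2.75 FPKM and overlapped both Saline-Saline and LPS-Heroin. Saline-Heroin, at 1.62 to 2.44 FPKM with a mean of 2.05 FPKM, overlapped both of them as well. Hcn3 read 6.98, 7.91, 7.69 and 8.16 FPKM in Saline-Saline, 5.86, 6.79, 5.14 and 6.42 FPKM in Saline-Heroin and 6.09, 5.31, 6.20 and 5.90 FPKM in LPS-Heroin. All 8 heroin-injected libraries were below all 4 Saline-Saline libraries. No share of all genes is given for separation in both groups, which share their controls, so it is not read as unusual among genes. LPS-Saline, also without heroin, read 5.71, 7.66, 8.48 and 5.71 FPKM and overlapped Saline-Saline and both heroin-injected groups. Against Saline-Saline, Hcn3 fell by 0.38 in LPS-Heroin (SE 0.09, limma adjusted p = 0.199, exact permutation p = 0.0286). It went under the fold limit without Saline-Saline replicate 2 or 4 or LPS-Heroin replicate 2, where the smallest difference was −0.33. The difference of −0.34 in Saline-Heroin (SE 0.11) lay under the fold limit. Pklr overlaps Hcn3 on the opposite strand and was at or below 0.897 FPKM in every library.

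Pooled over LPS, heroin injection called 0 channel genes up and 2 down, Cacna2d2 and Hcn4, where 1.08% of all genes were called up and 1.38% down. The main effect of heroin on Hcn4 was −0.42 (SE 0.15, limma adjusted p = 0.557), and it was lost without LPS-Saline replicate 3, Saline-Heroin replicate 1 or LPS-Heroin replicate 2 or 3 (−0.49 to −0.36). In the same contrast 4 of 11 cortical markers were called up and 4 of 9 septum and ventral forebrain markers down. Pooled over heroin, LPS called 0 of the 35 channel genes by limma, with 3 at an unadjusted p under 0.05 and 0 by limma-voom, where 0.926% of all genes were called up and 0.84% down. LPS-Heroin against Saline-Heroin called 0 by either tool, with 0 at an unadjusted p under 0.05 by limma, where 1.2% and 0.999% of all genes were called. LPS-Heroin against LPS-Saline called 0 by limma, with 1 at an unadjusted p under 0.05, and 2 by limma-voom, where limma called 1.14% and 1.15% of all genes.

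Levels also separated the experiments, which is given as a description only, since housing, surgery, light cycle and time of killing differed with it. Cacna1d was above all 16 injection libraries in all 8 self-administration libraries, at 10.5 to 17.3 against 6.51 to 9.26 FPKM. Mitochondrial genes also took a larger share of the reads on genes in the self-administration libraries, at 10.03% to 15.9% against 6.82% to 9.10% in the injection libraries, and the part of this in the levels was not tested. Cacna2d1 was below the injection libraries throughout, at 8.17 to 14.8 against 15.0 to 29.4 FPKM, and so was Scn2a, at 22.1 to 31.1 against 33.1 to 47.2 FPKM. These were 1 of 35 channel genes above and 2 below, where 3.12% and 4.07% of all genes lay apart in the same way.

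Proteins that bind these channels were counted from lists written from general knowledge. Of 17 calcium channel partners tested, 4 were called up and 1 down in LPS-Heroin against Saline-Saline, where 2.99% and 2.44% of all genes were, and their adjusted p by limma was 0.261 to 0.425. Rims1, an active zone scaffold that tethers calcium channels, rose by 0.47 on the log2 scale (20.3 to 28.4 FPKM), and Rimbp2, its binding partner, rose by 0.38. Stac, an adaptor of L-type channels, fell by 1.19 in LPS-Heroin, from 2.84 to 1.35 FPKM, and fell by 1.27 in Heroin-SA against Saline-SA, from 2.21 to 0.895 FPKM. In Saline-Heroin 0 were called up and 2 down, Gem (−0.82) and Rem1 (−0.94), small GTPases that inhibit calcium channels, both under 3 FPKM (limma adjusted p = 0.750 for each, with 1.4% of all genes called up and 1.67% down). Of 12 sodium channel partners, Nrcam, an adhesion protein of nodes and initial segments, was the 1 called, with a rise of 0.45 in LPS-Heroin (limma adjusted p = 0.230). Of 5 HCN partners, Pex5l, which controls the trafficking of HCN channels, rose by 0.61 in Heroin-SA, from 11.5 to 17.7 FPKM (limma adjusted p = 0.395), and Stac had an adjusted p of 0.348 by limma there, where 3.04% of all genes were called up and 2.41% down. None of the 3 lists had a call in LPS-Saline by limma.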

How the data were processed

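NAc RNA of 24 rat libraries, 4 in each of 6 groups taken from the labels, had been made into directional polyadenylated RNA libraries and sequenced by a provider. Reads were processed with fastp, HISAT2 and featureCounts on rn6, per the submitters' processing notes. Tool versions, and the release of the annotation, were not given in the sources used here. Whether counting used strand is not stated. The authors deposited FPKM values per gene, which hold no comparison of theirs. The paper's methods state more sequenced rats per group than the 4 analysed here.

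Whole reads, within 0.05 of a read, were recovered from 100% of the FPKM values by gene length and one step per library. The library size behind the values was 0.940 to 1.05 times the reads on genes. Counting error of a gene follows its reads, and intervals given are limma's.

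For each comparison, log2(FPKM + 0.1) of genes with a mean of at least 0.5 FPKM was fitted with limma-trend (limma 3.58.1, R 4.3.3), over the 8 libraries of 2 groups or the 16 libraries of 4 groups, with Benjamini-Hochberg adjustment over all genes tested. On this log scale with its pseudocount, fold changes of weakly expressed genes come out too small. Exact two-sided permutation tests used SciPy 1.17.1. Named genes were those called, at most 6 per comparison in full, the highest member of each family, partners from 3 lists and cell type markers. Genes under the fold limit were added after their values were seen. Channel genes, lists and tests were chosen with earlier results of these data known. The fit was tested on simulated data. Alternatives changed the pseudocount, the filter on low values, the normalization between libraries, the libraries fitted, the moderation, the test, the fold limit and the replicate block, and left out each library. Promoter windows came from RefSeq (GRCr8). Genes that overlap another gene are uncertain. For 2 channel genes and 1 marker, which remain in the counts, values are not reported here.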

Additional observations from a re-analysis of the deposited data

Results flagged for a closer look

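Within a group of 4 libraries, 15 of 210 combinations of a channel gene and a group (7.14%) held a library far from the other 3, of which 14 are given here, where chance flags about 1 in 20. In LPS-Heroin, replicate 4 was low for Cacna1a (18.1 FPKM, the others 22.2 to 22.7), replicate 3 was low for Cacna2d1 (16.2, the others 27.2 to 29.4) and replicate 3 was high for Hcn2 (58.7, the others 41.0 to 43.0). In Saline-Saline, replicate 3 was high for Cacnb2 (22.3, the others 18.2 to 18.5) and Cacnb4 (24.9, the others 18.9 to 19.9), and replicate 4 was high for Hcn2 (58.0, the others 49.7 to 50.3). Saline-Heroin replicate 4 was high for Cacng7 (101.5, the others 62.4 to 64.9). Saline-SA replicate 3 was high for Cacnb1 (87.8, the others 73.8 to 75.7) and replicate 2 for Scn3a (9.22, the others 8.22 to 8.35). In Heroin-SA, replicate 4 was high for Cacng4 (40.5, the others 35.3 to 36.1), Scn8a (25.4, the others 22.6 to 22.9) and Scn9a (3.55, the others 2.35 to 2.38) and low for Cacng8 (95.4, the others 99.7 to 100.1), and replicate 3 was high for Cacng7 (109.2, the others 78.4 to 80.3).

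Effects differed between groups by a test of the difference for 3 channel genes, each at an unadjusted limma p of at most 0.05. The LPS by heroin interaction for Cacna1c was −0.40 on the log2 scale. The effect of self-administered less injected heroin was −0.44 for Cacna1h and 0.52 for Scn1a. In limma with Benjamini-Hochberg adjustment, none of the 3 had an adjusted p under 0.7.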

How the results depend on the processing

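Of 110 counts of channel genes called under the alternatives, 97 stayed within 1.5 times of those reported and 13 did not. With no limit on the fold change, the count was 6 in place of 2 for LPS-Saline against Saline-Saline, 6 in place of 3 for Saline-Heroin, 7 in place of 3 for Heroin-SA against Saline-SA, 3 in place of 0 for the LPS main effect, 6 in place of 2 for the heroin main effect and 1 in place of 0 for LPS-Heroin against LPS-Saline. That last count was also 1 with all 24 libraries in one fit and 2 by limma-voom on recovered reads, and the LPS main effect then had 1 with all 24 libraries. With a pseudocount of 1 the heroin main effect had 1 in place of 2 and the interaction 0 in place of 1, while limma-voom gave 2 for the interaction. Each cause other than the limit itself was not tested. The counts with no limit on the fold change stand without the share of all genes, and are not read as an excess of channel genes.

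Leaving out 1 library at a time, the counts ran from 1 to 4 for LPS-Saline, 0 to 4 for Saline-Heroin and 3 to 8 for LPS-Heroin against Saline-Saline, 0 to 1 for LPS-Heroin against LPS-Saline, 2 to 6 for Heroin-SA against Saline-SA, 0 to 1 for the LPS main effect, 0 to 3 for the heroin main effect, 0 to 2 for the interaction and 1 to 4 for self-administered less injected heroin. LPS-Heroin against Saline-Heroin had 0 throughout. The counts with a library left out stand without the share of all genes. The median log2 difference of the channel genes in LPS-Heroin was 0.18 without LPS-Heroin replicate 4.

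Same-numbered libraries of different groups did not deviate together, with 5 of 60 correlations over 0.1 (median 0.007), so the numbers did not pair the libraries. Fitted with the replicate block, the counts were 2, 2 and 6 for the 3 groups against Saline-Saline, 1 for LPS-Heroin against LPS-Saline and 3 for Heroin-SA, and no other count changed. Of 310 alternatives for single genes, 300 kept their direction and their side of the threshold, 10 lost the threshold and 0 reversed. Those lost were Cacna2d2 in Saline-Heroin, Cacna2d1 in LPS-Heroin and Cacna1c under the block, Hcn3 in LPS-Heroin, the main effect on Hcn4 and Cacna1c with a pseudocount of 1, and Cacna1i in LPS-Saline and Scn8a in Heroin-SA both under the block and with all 24 libraries. In limma with adjustment over all genes, 78 genes of the table passed an adjusted p of 0.05 in Heroin-SA with all 24 libraries in one fit, and 7 in LPS-Saline and 5 in Saline-Heroin with no filter on low values. No channel gene did so under any alternative or library left out, and the lowest adjusted p was 0.0586 by limma, in Heroin-SA with all 24 libraries. Depth limits low genes such as Hcn4, with as few as 94 reads in a library.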
